A study of Mus musculus with 9 samples.

Results

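CTCF sites that are bound in every library of a study and sit among many other CTCF sites are described here across mouse CD8+ T cells with and without Tcf1 and Lef1. Peaks of the 8 CTCF libraries on chromosomes 1 to 19 were merged where they overlapped by at least 1 bp, which gave 38586 regions. Every one of the 8 libraries had a peak in 9363 (24.3%), which are called constitutive. The array sites are the 3678 constitutive regions that had at least 5 other merged regions, from any library, with midpoints within 50 kb. They made up 39.3% of the constitutive and 9.53% of all regions. They were chosen by peak calls and positions, so their presence in every list and their number of neighbours are given as descriptions, without a test.

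CTCF is a zinc-finger protein that binds a long DNA motif and stops cohesin as it extrudes chromatin loops, so bound sites mark the anchors of loops and many borders of chromatin domains. Groups of closely spaced CTCF sites are known from domain borders and from clusters of related genes, where several sites can stand in for each other. Tcf1 and Lef1 are related HMG-box transcription factors that maintain the identity of T cells, and IL-7 and IL-15 are the cytokines that keep naive and memory CD8+ T cells alive and slowly dividing.

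Binding was mapped by CUT&RUN, in which an antibody brings a nuclease to the bound protein and the DNA beside it is cut free. The cells were naive CD8+ T cells from spleen, sorted as GFP+ TCRbeta+ CD62Lhi CD44lo-med. DKO cells (Tcf1-/-Lef1-/-) came from mice with floxed Tcf1 and Lef1 alleles and WT cells from mice with wild-type alleles, and both kinds of mice carried hCD2-Cre, which acts in lymphocytes, and the Cre reporter Rosa26-lsl-GFP. Cells were taken after culture in IL-7 plus IL-15 for 72 h (cultured) or at 0 h (naive), with 2 CTCF libraries for each genotype and time, and a control library with IgG was made from naive WT cells. The ages of the mice were not given, and the labels do not say whether the 2 libraries of a group came from separate animals, so p-values measure only the spread between these samples, which may be technical. Neither the deletion nor the cell type could be checked in lists of CTCF peaks. The number of autosomal peaks was 10078 and 15829 in cultured DKO cells, 16909 and 25940 in cultured WT cells, 29570 and 30647 in naive DKO cells and 31798 and 30234 in naive WT cells. The shortest list, DKO 72 h replicate 1, limits which sites count as constitutive: without it the same rule gave 5348 array sites among 13472 constitutive regions. The number of reads per library is unknown here. Neither of the 2 autosomal peaks of the IgG library overlapped an array site. Regions are given by their mm9 positions, without gene names.

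Array sites had a median of 7 and a mean of 7.57 neighbours within 50 kb, up to 22, and 705 of them (19.2%) had 10 or more. Constitutive regions outside the arrays had a median of 2 neighbours. The midpoint nearest to an array site lay at a median of 4.38 kb, against 13 kb for the other constitutive regions, and the nearest constitutive midpoint at 18.3 kb against 57 kb. Most neighbours were not constitutive themselves. On average 1.73 of an array site's neighbours were constitutive and 5.84 were not, 603 sites (16.4%) had no constitutive neighbour, and in 1 site all neighbours were constitutive.

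Array sites were unevenly spread over the chromosomes. On chromosome 11 they made up 53.8% of the constitutive regions (437 of 812, exact Clopper-Pearson 95% interval 50.3% to 57.3%), on chromosome 15 51.1% (228 of 446, 46.4% to 55.9%) and on chromosome 17 49% (206 of 420, 44.2% to 53.9%). The lowest shares were 18.8% on chromosome 18 (50 of 266, 14.3% to 24%) and 19.9% on chromosome 13 (71 of 356, 15.9% to 24.5%). The intervals cover counting error only and treat neighbouring sites as independent, which they are not, since each site counts the others as neighbours.

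**Figure D1:**
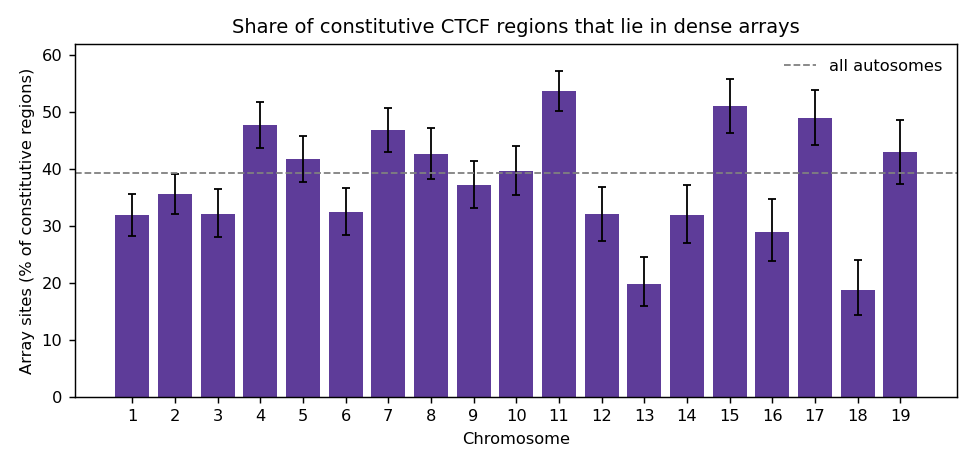
Bars give the array sites as a percentage of the constitutive CTCF regions of each autosome, with exact 95% Clopper-Pearson intervals, and the dashed line is the value over all autosomes (39.3%). Chromosome 11 stands highest at 53.8%, and chromosomes 13 and 18 lowest at 19.9% and 18.8%.

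When array sites whose midpoints lay at most 50 kb apart were joined in runs, they formed 1739 arrays. Most were small: 829 held 1 array site and 406 held 2, while 114 held 5 or more and together carried 730 sites (19.8%). The longest run, chr7:19653539-20047241, spanned 394 kb on chromosome 7 and held 18 array sites among 49 regions. Of these 49 regions, the number with a peak was 19 and 23 in cultured DKO cells, 23 and 37 in cultured WT cells, 42 and 40 in naive DKO cells and 42 and 43 in naive WT cells. With the constitutive regions ranked by peak strength, the 18 sites ranged from the 19.4th to the 97.2nd percentile, so weak and strong sites stood side by side. At chr10:80660724-81015158 on chromosome 10, 16 array sites lay among 49 regions within 354 kb, and the number with a peak was 17 and 21 in cultured DKO cells, 21 and 28 in cultured WT cells, 42 and 41 in naive DKO cells and 36 and 33 in naive WT cells. At chr11:98429464-98721237 on chromosome 11, 14 of 21 regions within 292 kb were array sites, and the number of the 21 with a peak was 14 and 16 in cultured DKO cells, 15 and 17 in cultured WT cells, 19 and 19 in naive DKO cells and 18 and 19 in naive WT cells. In all 3 arrays every library at 72 h had fewer peaks than every library at 0 h, and the array on chromosome 11 had peaks at most of its regions throughout. None of the sites called in the comparisons below lies in these 3 arrays.

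**Figure D2:**
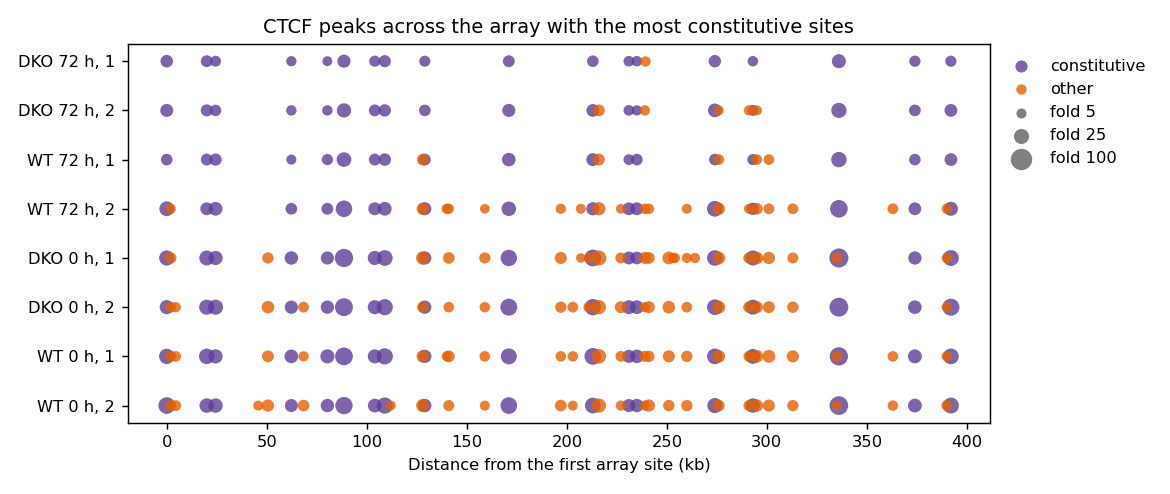
Each circle is a CTCF peak in the array with the most array sites (18 sites within 394 kb on chromosome 7), placed by its distance in kb from the first site on the x axis and by library on the y axis. Circle area grows with the square root of the authors' fold enrichment. Purple circles, the constitutive sites, run through all 8 rows, and orange circles, the other regions, are sparse in the 72 h rows other than WT 72 h replicate 2.

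The 6 most crowded array sites, taken 1 per array, ranged from weak to strong. chr11:52110658-52111813, chr11:99010997-99012051 and chr17:35341389-35342651 each had 22 neighbours, chr7:25191770-25192662 had 21, and chr4:151538981-151540298 and chr6:48675028-48676362 had 20 each. chr11:99010997-99012051 was strong throughout, with a fold enrichment over background, the value the authors' peak caller gave each peak, of 11.7 and 16.1 in cultured DKO cells, 21.5 and 28.6 in cultured WT cells, 39.5 and 49.7 in naive DKO cells and 44.1 and 38.2 in naive WT cells. chr17:35341389-35342651 was weak, with a fold of 4.61 and 6.04 in cultured DKO cells, 5.39 and 8.78 in cultured WT cells, 7.14 and 4.78 in naive DKO cells and 5.83 and 7.64 in naive WT cells. Of the 22 neighbours of chr11:52110658-52111813, the number with a peak was 3 and 5 in cultured DKO cells, 5 and 10 in cultured WT cells, 17 and 19 in naive DKO cells and 13 and 13 in naive WT cells. For chr17:35341389-35342651 this number was 5 and 6 in cultured DKO cells, 10 and 18 in cultured WT cells, 16 and 15 in naive DKO cells and 15 and 16 in naive WT cells, and among the 72 h libraries WT replicate 2 had the most.

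The arrays were dense in the lists of naive cells and much less so in those of cultured cells. The mean number of neighbours with a peak in the same library was 1.83 and 2.85 in cultured DKO cells, 3.11 and 4.74 in cultured WT cells, 5.85 and 6.09 in naive DKO cells and 6.06 and 5.77 in naive WT cells per array site. The share of array sites with at least 5 such neighbours was 2.42% and 13.3% in cultured DKO cells, 17.9% and 50.1% in cultured WT cells, 70% and 74.8% in naive DKO cells and 75.1% and 69.9% in naive WT cells. The name dense array therefore holds for the 8 lists as a set and for most sites at 0 h, and for few sites in 3 of the 4 libraries at 72 h. These numbers move with the length of the lists, which are shorter at 72 h, and the part of list length in them was not tested.

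The 11256 non-constitutive regions within 50 kb of an array site make up the surroundings of the sites, and 17967 non-constitutive regions lay elsewhere. The share of regions with a peak in the surroundings was 1.61% and 19.4% in cultured DKO cells, 23.3% and 51.2% in cultured WT cells, 70.1% and 74.2% in naive DKO cells and 74.8% and 69.6% in naive WT cells. Elsewhere it was 1.73% and 21.7% in cultured DKO cells, 25.2% and 57.1% in cultured WT cells, 66.5% and 70.1% in naive DKO cells and 75.8% and 70.1% in naive WT cells. The surroundings thus had the lower share in all 4 libraries at 72 h and in both WT libraries at 0 h, and the higher share in both DKO libraries at 0 h. Among regions with a peak in all 4 libraries at 0 h, 5688 in the surroundings and 8788 elsewhere, a peak was called at 72 h at 2.34% and 35.3% of the surroundings in DKO and at 40.5% and 75.5% in WT. Elsewhere these shares were 2.82% and 40.8% in DKO and 44.2% and 80.4% in WT, higher than in the surroundings in each of the 4 libraries. The median fold of these regions at 0 h was 9.23 and 9.49 in DKO and 9.27 and 8.48 in WT in the surroundings, against 8.95 and 9.41 in DKO and 9.54 and 8.8 in WT elsewhere. Of the surroundings, 1296 regions (11.5%) had a peak in all 4 libraries at 0 h and in none at 72 h, against 1598 (8.89%) elsewhere, and 314 (2.79%) were called only at 72 h, against 797 (4.44%). A further 1494 (13.3%) lacked a peak only in DKO 72 h replicate 1, against 2615 (14.6%) elsewhere. In DKO 72 h replicate 1 the shares were bound to be low in both places. Its list held 10078 autosomal peaks, and each of the 9363 constitutive regions took at least 1 of them. Its low values are therefore no measure of peaks lost in cultured DKO cells. Since the rule used peak calls, none of these shares was tested.

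**Figure D3:**
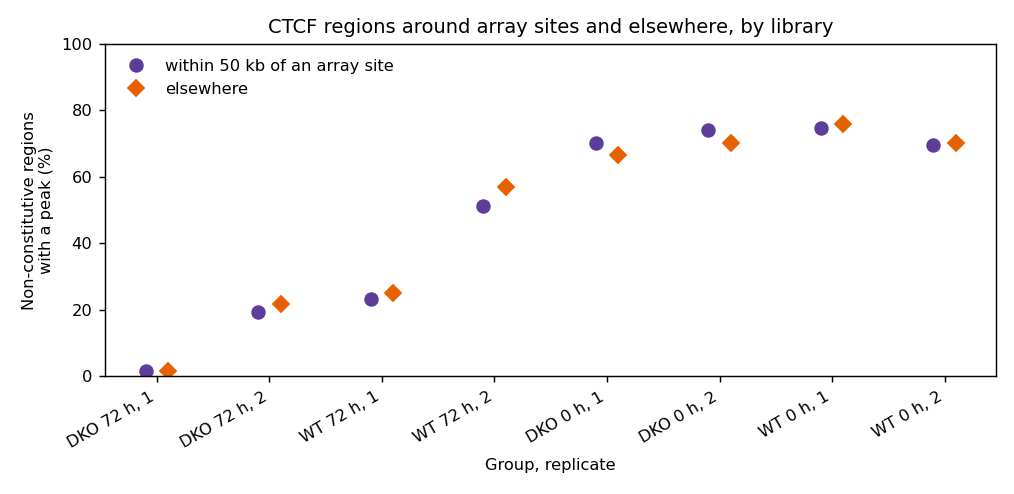
The y axis gives the percentage of non-constitutive CTCF regions with a peak in each library, with purple circles for the 11256 regions within 50 kb of an array site and orange diamonds for the 17967 elsewhere. In the 4 libraries at 72 h the circles lie below the diamonds, from 1.61% to 51.2%, and in the 2 DKO libraries at 0 h they lie above them, at 70.1% and 74.2%. The shares of DKO 72 h replicate 1 were bound to be low, since constitutive regions took most peaks of that short list.

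Array sites had about the same fold enrichment as the other constitutive regions. Their median fold was 7.16 and 10.2 in cultured DKO cells, 10.1 and 15.7 in cultured WT cells, 23.5 and 24.3 in naive DKO cells and 22.7 and 20.9 in naive WT cells. For the other constitutive regions it was 7.19 and 10.2 in cultured DKO cells, 10.2 and 16.1 in cultured WT cells, 22.6 and 23.8 in naive DKO cells and 22.6 and 20.9 in naive WT cells. The median peak at an array site had a width in bp of 452 and 596 in cultured DKO cells, 611 and 781 in cultured WT cells, 926 and 959 in naive DKO cells and 910 and 890 in naive WT cells, against 453 and 607 in cultured DKO cells, 613 and 795 in cultured WT cells, 877 and 917 in naive DKO cells and 873 and 867 in naive WT cells at the others. The merged array regions had a median width of 1097 bp and 8.95% of them were wider than 2000 bp, against 1046 bp and 4.87%. The share of array sites with at least 2 separate peaks in the region was 2.99% and 4.57% in cultured DKO cells, 4.65% and 5.27% in cultured WT cells, 2.66% and 2.61% in naive DKO cells and 3.24% and 3.37% in naive WT cells. Among the other constitutive regions it was 1.93% and 2.71% in cultured DKO cells, 2.73% and 2.69% in cultured WT cells, 1.6% and 1.27% in naive DKO cells and 1.78% and 1.71% in naive WT cells, below the array sites in every library. Summits of the 8 libraries fell within 100 bp of each other at 35.1% of the array sites and at 30.9% of the others.

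For a measure of strength that can be set beside other libraries, the constitutive regions were ranked within each library by the authors' −log10 p of their strongest peak, and the rank was written as a percentile from 0 (weakest) to 100 (strongest). The median percentile of the array sites was 52.1 and 51.3 in cultured DKO cells, 50.9 and 50.9 in cultured WT cells, 55.3 and 54 in naive DKO cells and 52.5 and 53.1 in naive WT cells. That of the other constitutive regions was 48.8 and 48.3 in cultured DKO cells, 49 and 49.9 in cultured WT cells, 46.3 and 46.9 in naive DKO cells and 48.3 and 48 in naive WT cells. In all 8 libraries the array sites ranked higher, with the widest gap in DKO cells at 0 h. Ranking by fold in place of −log10 p gave another picture: the median of the array sites was then 49.2 and 49.8 in cultured DKO cells, 49.6 and 49.2 in cultured WT cells, 52.5 and 51.6 in naive DKO cells and 50.3 and 50.5 in naive WT cells, against 50.2 and 50.2 in cultured DKO cells, 50.5 and 51.2 in cultured WT cells, 48.6 and 49.2 in naive DKO cells and 50 and 49.9 in naive WT cells for the others. The order thus turned round in the 4 libraries at 72 h.

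At 0 h, constitutive regions with no neighbour ranked lowest, and the gap between them and the most crowded sites was wider in DKO cells. Regions with 0 neighbours had a median percentile of 35.9 and 36.8 in DKO and 40.5 and 42.1 in WT, those with 5 or 6 neighbours 54.9 and 53.6 in DKO and 52.3 and 53.9 in WT, and those with 10 to 22 neighbours 56.4 and 54.7 in DKO and 52.5 and 53.1 in WT. The 2 libraries of each genotype did not overlap at either end, with DKO lower for regions without neighbours and higher for the most crowded. With ranks by fold the ends were 38.5 and 41.2 in DKO and 45.3 and 45.2 in WT with 0 neighbours, and 52.4 and 52.9 in DKO and 47.6 and 49.1 in WT with 10 or more. At 72 h the same ends, by −log10 p, were 45 and 44 in DKO and 45.1 and 45.8 in WT, and 52.2 and 52.2 in DKO and 52.2 and 50.9 in WT. At the limit of the rule, the 1131 regions with 4 neighbours had a median of their mean percentile of 49.5 and the 857 with 5 neighbours a median of 52.2. No p is given for these medians, because the sites were chosen with results of these data known.

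**Figure D4:**
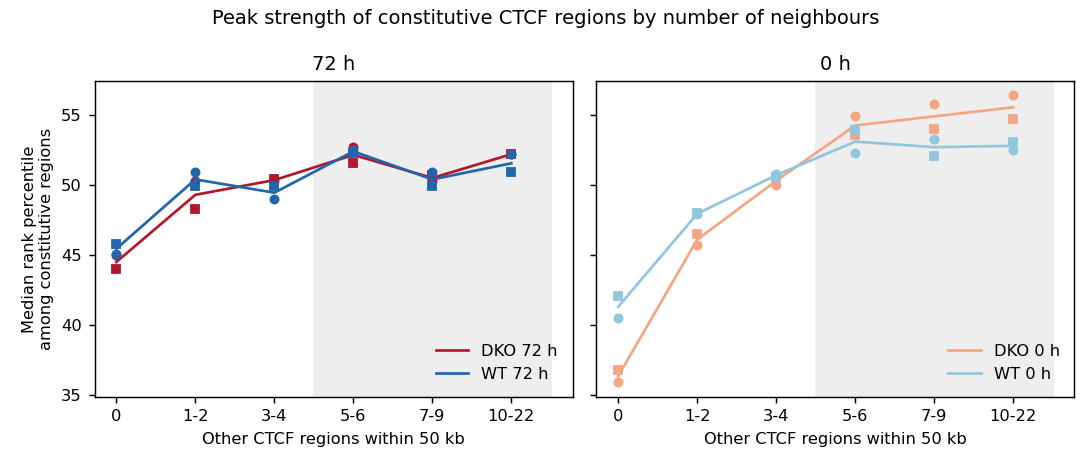
The median rank percentile of constitutive CTCF regions (y axis, from the authors' −log10 p) is plotted against the number of other CTCF regions within 50 kb (x axis), with circles for replicate 1, squares for replicate 2 and lines for their mean. The grey area marks the array sites. At 0 h the DKO libraries lie at 35.9 and 36.8 with 0 neighbours and at 56.4 and 54.7 with 10 or more, and their line crosses the WT line, and at 72 h the lines of both genotypes lie close together.

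The strongest and weakest array sites were picked by their mean percentile over the 8 libraries, which fixes that they rank near the ends in each. The 5 with the highest mean were chr19:5487605-5491667, chr4:135475793-135477281, chr2:173054759-173055928, chr4:132379451-132380797 and chr6:114876069-114880135, and none of them fell below the 99.8th percentile in any library. chr4:135475793-135477281, which had 17 neighbours, reached the highest folds of these, 39.1 and 52.2 in cultured DKO cells, 49.4 and 83.8 in cultured WT cells, 144 and 138 in naive DKO cells and 134 and 119 in naive WT cells. chr4:132379451-132380797 reached 20.4 and 23.6 in cultured DKO cells, 25.9 and 37.8 in cultured WT cells, 64.4 and 54.7 in naive DKO cells and 47.9 and 44.7 in naive WT cells with 5 neighbours, none of them constitutive. The 5 weakest were chr11:54844370-54845173, chr16:91405980-91407141, chr7:25164783-25165698, chr2:156963434-156964283 and chr19:34364623-34365355, and none exceeded the 7.64th percentile in any library. chr7:25164783-25165698 had 16 neighbours and folds of 4.05 and 4.36 in cultured DKO cells, 6.23 and 6.57 in cultured WT cells, 8.8 and 11.7 in naive DKO cells and 10 and 9.78 in naive WT cells. In all 8 libraries 461 array sites (12.5%) stayed above the 75th percentile and 223 (6.06%) below the 25th, against 576 (10.1%) and 413 (7.26%) of the other constitutive regions. Over the 8 libraries the percentile of a site ranged by a median of 32.7 points, against 32.9 elsewhere.

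Naive DKO and WT cells were compared to ask which array sites differ without Tcf1 and Lef1. Few were called: 10 of 3678 array sites (0.272%) passed the test, 3 higher and 7 lower in DKO. Of all 9363 constitutive regions, 0.203% were called (0.0534% higher and 0.15% lower). In this test the percentile was turned into the matching quantile of a normal distribution, and limma was fitted over all constitutive regions and all 8 libraries with Benjamini-Hochberg adjustment over all of them. A difference of 1 is 1 SD of the ranking, and a site was called at an adjusted p under 0.05. The median difference was 0.0434 over the array sites and 0.00396 over all regions.

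Of the 5 sites lower in DKO with the smallest adjusted p, chr2:173277430-173278709 had the largest difference. Its fold was 9.17 and 10.2 in DKO and 23.9 and 22.8 in WT at 0 h, and its percentile 5.04 and 5.97 in DKO and 72.6 and 76.5 in WT (difference -2.26, SE 0.27, adjusted p = 0.0283, limma). Neither measure overlapped between the genotypes. chr8:125908519-125909599 had a fold of 18.5 and 20.2 in DKO and 45.1 and 39.7 in WT and a percentile of 30.1 and 32.8 in DKO and 93.8 and 93.3 in WT (difference -2, SE 0.3, adjusted p = 0.0283, limma). chr10:92513347-92514267 had folds of 16.4 and 17 in DKO and 35.5 and 31.3 in WT (difference -1.87, SE 0.25, adjusted p = 0.0283, limma). At both of these the DKO libraries lay far below the WT libraries. chr2:11187620-11188728 had folds of 13 and 14.8 in DKO and 25.6 and 26.5 in WT, and chr10:122194898-122196107 folds of 15.8 and 20.1 in DKO and 36.4 and 29.8 in WT. Their differences were -1.96 and -1.73 (limma, adjusted p = 0.0283 for each). The sites were picked by this test, so the gaps between genotypes only describe them.

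The 3 sites higher in naive DKO cells were chr2:25281739-25283151, chr8:87497885-87501674 and chr5:124524760-124526294. chr2:25281739-25283151 had a fold of 75.6 and 71.4 in DKO and 22.5 and 22.1 in WT. Its percentile was 99 and 98.9 in DKO and 67.6 and 74.7 in WT (difference 1.75, SE 0.26, adjusted p = 0.0283, limma). chr8:87497885-87501674, 3790 bp wide and with 13 neighbours, had a fold of 43.4 and 41.6 in DKO and 7.97 and 7.75 in WT (difference 1.74, SE 0.28, adjusted p = 0.0363, limma). chr5:124524760-124526294, also with 13 neighbours, had 24.4 and 27.1 in DKO and 14.6 and 12.3 in WT (difference 1.51, SE 0.26, adjusted p = 0.0455, limma). At all 3 the folds of the DKO libraries lay above those of the WT libraries, which only describes sites picked by the test. At 72 h, chr2:25281739-25283151 had folds of 22.5 and 29.3 in DKO and 27.3 and 35.2 in WT and percentiles of 99.6 and 99.5 in DKO and 98.7 and 97.1 in WT, so the genotypes stood close together there.

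The number of sites called at 0 h moved with the libraries and the scale. When 1 library was left out, the rule was applied to the other 7 lists, and each count is followed by the share of the array sites called, against the share of all constitutive regions. The number called was 42 without DKO 72 h replicate 1 (0.785% against 0.534%), 29 without DKO 72 h replicate 2 (0.777% against 0.537%) and 0 without any 1 of the 4 libraries at 0 h (0% against 0%). With only the 4 libraries at 0 h in the fit it was 63, 41 higher and 22 lower in DKO (1.71% against 1.44%). With ranks by fold it was 2, both higher (0.0544% against 0.0214%), and with log2 folds in place of ranks 18, 8 higher and 10 lower (0.489% against 0.352%). Replicates spread less at 0 h than at 72 h: the SD between the 2 libraries of a group at array sites, on the scale of the test, was 0.457 in cultured DKO cells, 0.384 in cultured WT cells, 0.275 in naive DKO cells and 0.262 in naive WT cells.

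In cultured cells, 5 array sites (0.136%) passed the test between DKO and WT, 2 higher and 3 lower in DKO, against 0.0641% of all constitutive regions (0.0214% higher and 0.0427% lower). chr8:125908519-125909599 and chr10:92513347-92514267, lower in naive DKO cells, were lower here too. At 72 h chr8:125908519-125909599 had folds of 6.59 and 7.05 in DKO and 16.2 and 29.5 in WT (difference -2.12, SE 0.3, adjusted p = 0.0436, limma), and chr10:92513347-92514267 had 5.59 and 7.27 in DKO and 14.4 and 21.4 in WT (difference -1.69, SE 0.25, adjusted p = 0.0436, limma). At the third lower site, chr8:14993319-14994853, the fold was 4.2 and 5.24 in cultured DKO cells, 9.64 and 13.9 in cultured WT cells, 14.8 and 13.7 in naive DKO cells and 15.9 and 15.8 in naive WT cells (difference -1.77, SE 0.26, adjusted p = 0.0436, limma). The 2 higher sites both lay on chromosome 15. chr15:61271038-61272056 had folds of 20.5 and 26.4 in DKO and 10.9 and 20.5 in WT, where the highest WT library was as high as the lowest DKO library, but its percentiles of 98.6 and 98.3 in DKO and 45.1 and 63.5 in WT did not overlap (difference 2.05, SE 0.3, adjusted p = 0.0436, limma). chr15:66656294-66657727, at 7.91 and 9.98 in DKO and 5.74 and 6.21 in WT, was among the weaker sites (difference 2.11, SE 0.3, adjusted p = 0.0436, limma).

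Other settings moved this count. It was 40 without DKO 72 h replicate 1 (0.748% against 0.668% of all constitutive regions), 97 without DKO 72 h replicate 2 (2.6% against 2.58%) and 0 without any 1 of the 6 other libraries. It was also 0 with only the 4 libraries at 72 h, with ranks by fold, with log2 folds and with lists of equal length, where 0% of all constitutive regions were called too. The unadjusted p of limma was under 0.05 at 483 array sites (13.1%), against 13.6% of all constitutive regions. The fit shared 1 spread over the 4 groups. Replicates at array sites spread more at 72 h (SD 0.457 in DKO and 0.384 in WT) than at 0 h (0.275 and 0.262). The p-values at 72 h may therefore be too small, and these sites are not shown to differ.

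Cultured WT cells were compared with naive WT cells to ask which array sites shift in rank with cytokine. Here 90 array sites (2.45%) passed the test, 67 higher and 23 lower at 72 h, against 1.99% of all constitutive regions (1.42% higher and 0.566% lower). The 67 that rose had a median percentile of 70.2 at 72 h and 6.13 at 0 h. The 23 that fell had medians of 8.08 at 72 h and 54 at 0 h. The call selects such contrasts, so these medians only describe the sites. A region also needed a peak in every list, including the shorter ones at 72 h, which limits which sites could be called. Sites that rose lay in 63 arrays and those that fell in 23, of 1739 arrays, many of which hold a single array site.

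The site with the smallest adjusted p was chr9:107937523-107938286, 764 bp wide with 9 neighbours. Its fold in WT was 29.2 and 42.6 at 72 h and 8.66 and 12 at 0 h, and its percentile 99 and 98.8 at 72 h and 2.56 and 7.32 at 0 h (difference 4, SE 0.27, adjusted p = 0.000105, limma). In DKO its fold was 16.8 and 20.5 at 72 h and 6.96 and 7.71 at 0 h (difference 4.42, SE 0.27, adjusted p = 3.54e-05, limma), which was the smallest adjusted p of the array sites there too. chr9:107937523-107938286 was thus among the weakest constitutive sites in naive cells and among the strongest after culture. It was not among the regions fitted with summits within 100 bp or with lists of equal length. chr2:93264588-93265418 had a WT fold of 11.7 and 29.8 at 72 h and 6.63 and 5.98 at 0 h (difference 3.44, SE 0.31, adjusted p = 0.000477, limma). chr11:70617102-70617791 had a WT fold of 13.9 and 26.8 at 72 h and 8.41 and 9.78 at 0 h (difference 2.94, SE 0.29, adjusted p = 0.000643, limma). chr6:47584822-47587485, with no constitutive neighbour, had a WT fold of 11.1 and 17.4 at 72 h and 8.22 and 7.81 at 0 h (difference 2.57, SE 0.27, adjusted p = 0.00114, limma). chr19:34657322-34658014 followed, at 15.4 and 22 at 72 h and 11.8 and 12.1 at 0 h (difference 2.33, SE 0.26, adjusted p = 0.00148, limma). At these 5 sites the listed fold was higher in both WT libraries at 72 h than in either at 0 h, while the median fold of all array sites was lower at 72 h. Fold and −log10 p come from the same peaks and the sites were picked by the test, so this only describes them.

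Of the sites that fell, chr7:135526798-135528172 stood out, with a WT fold of 4.58 and 6.32 at 72 h and 52.2 and 53.2 at 0 h, and a percentile of 20.9 and 19.2 at 72 h and 99.4 and 99.7 at 0 h (difference -3.44, SE 0.27, adjusted p = 0.000244, limma). In DKO its fold was 5.03 and 10.7 at 72 h and 51.3 and 55.2 at 0 h (difference -1.77, SE 0.27, adjusted p = 0.00985, limma). chr17:29628974-29631547 had WT folds of 10.9 and 16.4 at 72 h and 51.6 and 38.5 at 0 h and WT percentiles of 78.6 and 82.3 at 72 h and 99.3 and 99 at 0 h (difference -1.52, SE 0.27, adjusted p = 0.0211, limma). chr2:164749635-164750605 had WT folds of 6.39 and 12.1 at 72 h and 28 and 26.4 at 0 h, chr19:37637923-37639060 of 6.29 and 10 at 72 h and 23.7 and 29 at 0 h, and chr12:113789827-113790829 of 4.86 and 6.97 at 72 h and 29.5 and 23.4 at 0 h (limma, adjusted p = 0.0266, 0.0295 and 0.0302). The median WT fold of all array sites was 10.1 and 15.7 at 72 h and 22.7 and 20.9 at 0 h, so a lower fold at 72 h was common, and the calls rest on rank.

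The number of WT sites called moved with single libraries. It came to 17 (0.454% against 0.314% of all constitutive regions) and 18 (0.504% against 0.342%) without WT 72 h replicates 1 and 2, and to 9 (0.253% against 0.149%) and 12 (0.333% against 0.224%) without WT 0 h replicates 1 and 2. It was 37 (1.04% against 0.779%) and 28 (0.79% against 0.576%) without DKO 0 h replicates 1 and 2, and 228 (4.26% against 3.81%) and 183 (4.9% against 4.25%) without DKO 72 h replicates 1 and 2. Rising sites were the majority of the array sites called in each of these. In the main fit they were 74.4% of the array sites called, against 71.5% of all constitutive regions called. The majority was thus not particular to array sites. For the other fits the split over all constitutive regions is not given. Their share was larger on the other scales, with 31 higher and 2 lower by ranks of fold (0.897% against 0.673%) and 89 higher and 11 lower by log2 folds (2.72% against 2.09%). Since a peak in every list was required, a site that lost its peak at 72 h could not be counted as falling. Nor could a site without a peak at 0 h be counted as rising. Of the surroundings, 1296 regions had a peak in all 4 libraries at 0 h and none at 72 h, and 314 had peaks only at 72 h. The part of this filter in the balance was not tested.

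The same comparison within DKO cells called 162 array sites (4.4%), 70 higher and 92 lower at 72 h, against 4.29% of all constitutive regions (2.38% higher and 1.91% lower). The share called at array sites was close to the background for both directions together. By direction, 1.9% of the array sites were called higher and 2.5% lower, against 2.69% and 1.53% of the other constitutive regions. This difference in balance was not tested. Sites that rose had a median percentile of 52.8 at 72 h and 4.14 at 0 h, and sites that fell 19.7 at 72 h and 67.8 at 0 h. These medians too follow from how the sites were called, and only regions with a peak in every list were tested. The median difference was -0.0764 over the array sites and -0.00016 over all regions.

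Among the 5 leading sites that rose in DKO, chr9:107937523-107938286, chr19:34657322-34658014 and chr6:47584822-47587485 also led in WT. chr19:34657322-34658014 had a DKO fold of 12.8 and 19.2 at 72 h and 13.1 and 13.5 at 0 h (difference 2.88, SE 0.26, adjusted p = 0.000637, limma), and chr6:47584822-47587485 a DKO fold of 8.33 and 8.32 at 72 h and 5.77 and 8.99 at 0 h. On fold the times overlapped at both of these, while the percentiles of 89.9 and 92.8 at 72 h and 6.79 and 6.37 at 0 h, and of 77.3 and 63.7 at 72 h and 0.614 and 1.51 at 0 h, lay far apart. chr8:96937106-96938051 had a DKO fold of 10.6 and 16.9 at 72 h and 10.1 and 10.9 at 0 h (difference 2.91, SE 0.28, adjusted p = 0.00088, limma). Its folds overlapped between the times too, while its DKO percentiles were 80.4 and 86.3 at 72 h and 2.5 and 2.82 at 0 h. chr4:88388616-88389292 had a DKO fold of 7.83 and 9.69 at 72 h and 4.81 and 6.92 at 0 h (difference 3.02, SE 0.33, adjusted p = 0.00133, limma).

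Of the sites that fell in DKO, 3 of the leading 5 lay on chromosome 8. chr8:125588748-125589785, with 11 neighbours, had a DKO fold of 4.42 and 5.41 at 72 h and 24.1 and 24.3 at 0 h and a percentile of 1.32 and 1.66 at 72 h and 50.4 and 47.9 at 0 h (difference -2.15, SE 0.26, adjusted p = 0.00262, limma). Its WT fold was 6.13 and 8.18 at 72 h and 13.8 and 11.7 at 0 h. chr8:125565989-125567051 had a DKO fold of 5.81 and 7.14 at 72 h and 37.8 and 40.8 at 0 h (difference -1.93, SE 0.29, adjusted p = 0.00847, limma). chr8:72525144-72526228 had a DKO fold of 5.18 and 5.53 at 72 h and 27.3 and 25.4 at 0 h (difference -1.8, SE 0.26, adjusted p = 0.00839, limma). chr8:125588748-125589785 and chr8:125565989-125567051 lay within the same array. chr6:72351568-72353010 had a DKO percentile of 37.8 and 37 at 72 h and 90.3 and 93.1 at 0 h, and a WT percentile of 71.2 and 82.6 at 72 h and 89.5 and 87.6 at 0 h. chr7:135526798-135528172, given above for WT, was the fifth. For comparison, the median DKO fold of all array sites was 7.16 and 10.2 at 72 h and 23.5 and 24.3 at 0 h, so a lower fold at 72 h was the ordinary case and the calls rest on rank.

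The balance between rising and falling sites in DKO turned with the scale. By ranks of fold 39 were higher and 19 lower (1.58% against 1.42% of all constitutive regions), by log2 folds 99 were higher and 39 lower (3.75% against 4.15%), and with only the 4 DKO libraries in the fit 13 were higher and 3 lower (0.435% against 0.31%). Single libraries turned it too: 6 were higher and 0 lower without DKO 0 h replicate 1 (0.168% against 0.171%), and 12 higher and 2 lower without DKO 0 h replicate 2 (0.395% against 0.288%). Without WT 0 h replicate 1, 47 were higher and 26 lower (2.05% against 1.71%), and without WT 0 h replicate 2, 47 were higher and 29 lower (2.11% against 1.77%). Without DKO 72 h replicate 2 the count was 342, with 125 higher and 217 lower (9.16% against 8.91%).

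**Figure D5:**
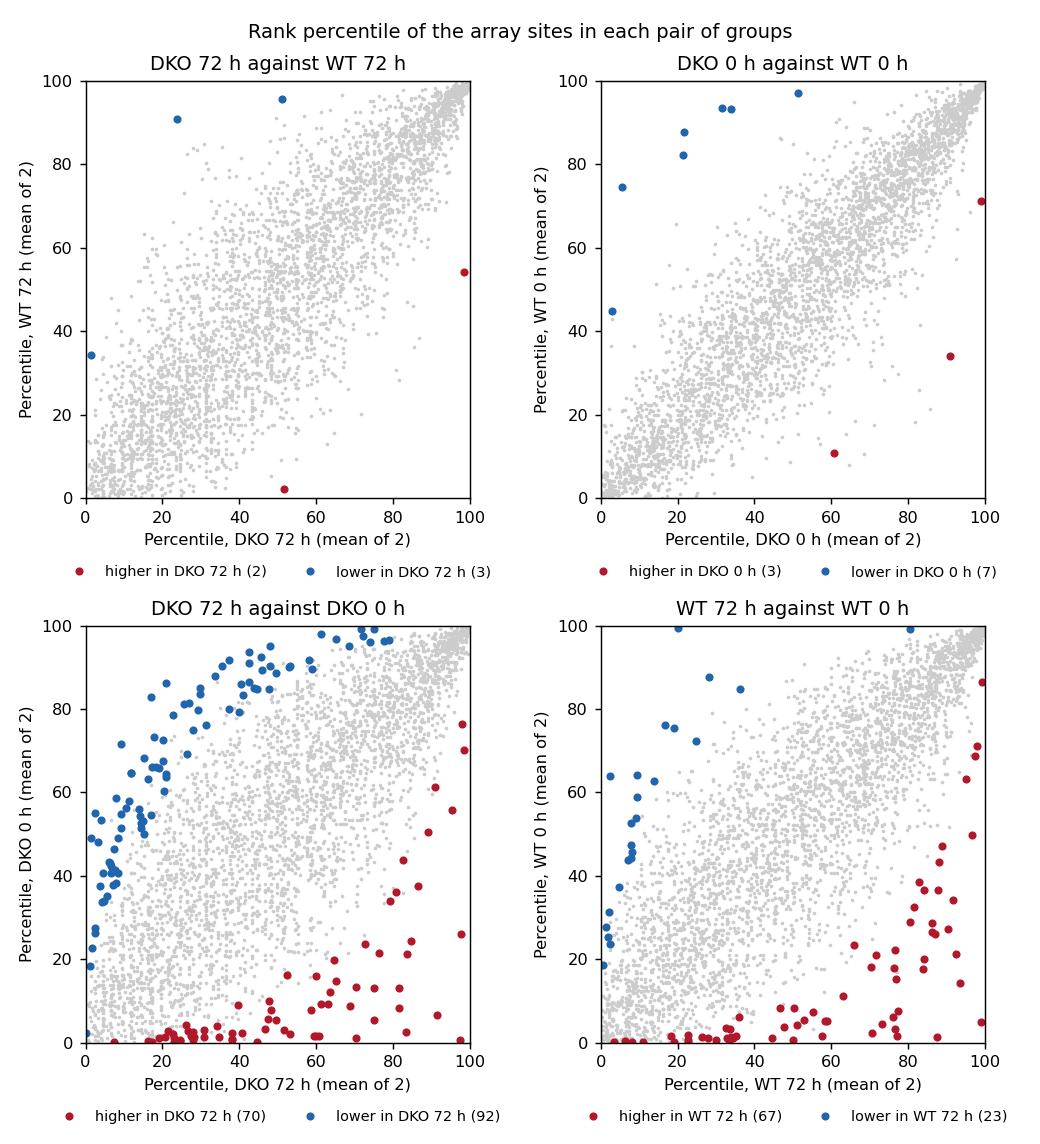
Each grey dot is an array site, placed by its mean rank percentile over the 2 libraries of the first-named group on the x axis and of the second on the y axis. Red dots passed the test as higher and blue dots as lower in the first group (limma, adjusted p under 0.05). Between genotypes there are 5 coloured dots at 72 h and 10 at 0 h, and between times 162 in DKO and 90 in WT, with many of the red dots at the bottom edge, where sites are weakest at 0 h.

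Whether the shift between times differed between genotypes was tested as an interaction, the 72 h minus 0 h difference in DKO minus that in WT. No array site (0 of 3678) and 0% of all constitutive regions passed limma's test, the smallest adjusted p being 0.455, and 255 array sites (6.93%) had an unadjusted p under 0.05, against 7.5% of all regions. With ranks by fold 0 array sites passed (0% of all constitutive regions), and with log2 folds 1 did (0.0272% against 0.0107% of all constitutive regions). The sites named above for 1 genotype are therefore not shown to differ between genotypes in their shift.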

How the data were processed

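CTCF CUT&RUN peak lists of 8 libraries and 1 IgG list were used as the authors deposited them. Reads were handled with FastQC and Bowtie2 2.2.5 and peaks with MACS2 2.1.1, on mm9, per the submitters' processing notes; the sources used here do not state the peak threshold, the control or the read depth, so no value is adjusted for depth. Each deposited peak carries a score, a fold enrichment over background, a −log10 p, a −log10 q and the offset of its summit, all of them the authors' own values. Differences in list length between libraries change which regions count as constitutive.

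The strongest peak of a region in a library gave its values. Constitutive regions were ranked by −log10 p within each library and ranks were turned into normal scores. Then limma 3.58.1 in R 4.3.3 was fitted with the 4 groups as terms, after a check on simulated data. The simulation gave all groups the same spread and planted shifts between DKO and WT at 72 h. It called 23 of 100 shifts of 1 and 98 of 100 shifts of 2, in either direction, and 5 of 9163 regions without a shift. In the real data replicates spread more at 72 h than at 0 h, so these counts may be too favourable for the comparison at 72 h. A site that was not called may therefore still differ. Alternatives were other peak thresholds, list lengths, overlaps, windows, neighbour minimums, scales and left-out libraries. The regions named are the 6 with the most neighbours (1 per array), the 5 strongest and 5 weakest, the 5 of smallest adjusted p per comparison and direction, and the 3 arrays with the most sites. The array sites and these rules were chosen with earlier results of these data known. Gene names and sequences were not used here.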

Additional observations from a re-analysis of the deposited data

How the results depend on the processing

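The number of array sites, 3678, was 2290 with peaks of −log10 q of at least 5, 345 with lists of equal length, 1219 and 6525 with windows of 25 and 100 kb, and 6122 and 1500 with at least 3 and 8 neighbours. The median over array sites of their mean percentile, 51.2, was 51.9 with the stricter peaks, 50.6 with summits within 100 bp, 50.2 and 49.8 with windows of 25 and 100 kb, 50.2 with at least 3 neighbours and 48.3 with ranks by fold, and ranged from 50.4 to 51.5 with 1 library left out. The shares of array sites called follow, each with the share of all constitutive regions called in the same fit in parentheses. Between DKO and WT at 0 h it was 0.0544% (0.0214%) with ranks by fold, 0.489% (0.352%) with log2 folds, 1.71% (1.44%) with only the 4 libraries compared, and from 0% (0%) to 0.785% (0.534%) with 1 library left out. Between DKO and WT at 72 h it was 0.218% (0.197%) with the stricter peaks, 0.0766% (0.0641%) with the window of 100 kb, 0.0817% (0.0641%) with at least 3 neighbours, 0% (0%) with equal lists, ranks by fold, log2 folds or only the 4 libraries compared, and from 0% (0%) to 2.6% (2.58%) with 1 library left out. Between 72 h and 0 h in WT it was 0.29% (0.0508%) with equal lists, 0.897% (0.673%) with ranks by fold and from 0.253% (0.149%) to 4.9% (4.25%) with 1 library left out. Between 72 h and 0 h in DKO it was 0.58% (0.694%) with equal lists, 1.58% (1.42%) with ranks by fold, 0.435% (0.31%) with only the 4 libraries compared and from 0.168% (0.171%) to 9.16% (8.91%) with 1 library left out. For the interaction it was 0.0272% (0.0107%) with log2 folds and from 0% (0%) to 0.0804% (0.0421%) with 1 library left out. The fit on only the 4 libraries compared was chosen after seeing the data. The cause of these shifts was not tested. For the 33 calls at named sites, the 17 alternatives that refit the regions gave 522 fits, of which 382 kept the call, 140 lost it and 0 reversed it; in a further 39 the site was not among the regions fitted. Of the 33 calls, the site was among the regions fitted for 25 with summits within 100 bp, 26 with the stricter peaks and 9 with lists of equal length. Windows and neighbour minimums change only membership and are not counted. Having 2 libraries per group and an unknown read depth limits every comparison.

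Replicate numbers showed little sign of pairing the samples: the correlations of the replicate differences between groups lay between 0.0223 and 0.0498. Such weak correlations cannot exclude a pairing, and the labels do not say how the replicates of different groups relate. With a replicate block, 0.0816% of the array sites were called between DKO and WT at 0 h (0.0641% of all constitutive regions) and 0% (0%) at 72 h, and between 72 h and 0 h 64 sites in WT (1.74% against 1.37%) and 131 in DKO (3.56% against 3.4%).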

Other observations

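Most constitutive regions near an array site that passed the test were not called themselves. Between times, the share called the same way exceeded that of constitutive regions at large in 3 of 4 groups of sites. In DKO, regions were also called the opposite way, and around falling sites these outnumbered those called the same way. Between genotypes, 0 of 6 and 0 of 13 regions near sites higher and lower in DKO at 0 h were called. At 72 h these were 0 of 2 and 0 of 6. Called sites near each other count each other, and the differences in shares were not tested. The 67 array sites that were higher at 72 h than at 0 h in WT had 125 other constitutive regions within 50 kb, of which 9 (7.2%) were called higher, against 1.42% of all constitutive regions, and 0 lower, against 0.566%. Around the 23 that were lower, 0 of 36 were called in either direction. In DKO, 7 of the 130 constitutive regions around sites that were higher at 72 h (5.38%) were called higher, against 2.38% of all. Of the same 130, 6 were called lower, against 1.91% of all. Around sites that were lower in DKO, 4 of 153 (2.61%) were called lower, against 1.91% of all, and 6 higher, against 2.38% of all.

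The strengths of adjacent array sites were close to uncorrelated. Over 629 pairs of adjacent array sites less than 10 kb apart, which share libraries and local background, the correlation of their mean percentiles was r = -0.00718, and over 652 pairs at 10 to 25 kb it was 0.0057. For the difference between 72 h and 0 h in WT, r was 0.106 below 10 kb and 0.131 at 10 to 25 kb. For the difference between DKO and WT at 0 h, r was 0.124 below 10 kb and 0.0706 at 10 to 25 kb, and among 434 pairs of constitutive regions outside the arrays it was 0.142 below 10 kb.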
